A study of Rattus norvegicus with 6 samples.

Results

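The genes described here carry out or control the synthesis of sterols and fatty acids. The set named 30 genes by symbol: 18 enzymes that build cholesterol, 6 genes of the SREBP control system or its sterol carriers, and 6 enzymes that make or modify fatty acids. Each gene was read on the probe set with the highest mean log2 signal over 6 arrays among those annotated to that symbol alone. Of the 30 genes 29 had such a probe set, out of 14217 genes on the arrays, and all 29 passed the filter on dim signals. The members had 48 probe sets in all, of which 46 were tested. Hmgcs1, an early enzyme of the mevalonate pathway, was not analysed for signal here and enters only the counts of promoter windows.

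RNA came from GH4C1 cells, an established rat line from a pituitary tumour that makes growth hormone and prolactin. The medium held 2.5% fetal calf serum and 15% serum from horse. All 6 cultures had been given a lentivirus whose insert was driven by the PGK promoter (multiplicity of infection 5), and RNA was taken after 4 days of growth. They are labelled as biological replicates of 1 line. In 3 cultures the vector carried POU1F1(R271W), a form of a pituitary transcription factor that the series title calls dominant negative, followed by an IRES and EGFP. In the other 3, the controls, it carried EGFP alone per the design text. Expression was driven by PGK in whatever cells took up the vector, and the share of cells transduced is not given in the sources used here. A change in the number of responding cells and a change of RNA per cell cannot be told apart in such cultures.

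Cells make cholesterol from acetyl-CoA through mevalonate, isoprenoid intermediates, squalene and a series of sterol intermediates, and they make fatty acids from the same precursor through malonyl-CoA. Both branches are driven by the SREBP transcription factors, which are held in the endoplasmic reticulum as precursors bound to SCAP. When sterols are plentiful the INSIG proteins retain the SCAP complex there, and when sterols run low it moves to the Golgi, where SREBP is cut and released to the nucleus. Enzymes of both branches, and Insig1 itself, are classical SREBP targets.

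Signals are MAS5 values, a linear brightness per probe set, and a log2 change is the R271W mean minus the control mean of log2 signal. A gene was called where limma's Benjamini-Hochberg adjusted p, taken over all 18625 tested probe sets, was under 0.05. The somatolactotroph markers Gh1, Prl, Pou1f1, Chgb and Scg2 read far above the filter, while the receptor gene Ghrhr lay below it. These markers moved too: Prl, the prolactin gene, fell by 0.45 on the log2 scale (adjusted p = 0.00048), Pou1f1 fell by 0.33 (0.00486), and Chgb, a secretory granule protein gene, rose by 0.46 (0.000337). All 3 calls ended without the intensity trend (0.0583, 0.107 and 0.0522). Gh1 and Scg2 were not called, with log2 changes of -0.03 and 0.02. Of 6 markers of other pituitary types 3 were tested and none was called (0 also at an unadjusted limma p under 0.05), and of 7 measured markers of fibroblasts, endothelium and blood only Hbb passed the filter. Median signals of the arrays ran from 22.4 to 22.9 in controls and from 25.5 to 26.9 in R271W cells, without overlap. The hybridisation spikes read 0.23 higher on the log2 scale on the R271W arrays. The ratio of the beta-actin 3′ to 5′ control probe sets was 1.82 ± 0.008 (SD, n = 3) in controls and 1.96 ± 0.099 (n = 3) in R271W cells. The part of the markers, median signals, spikes and actin ratio in the results below was not tested, beyond the rescaled values given beside them. With 3 arrays in each group, precision is limited by their number.

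Of the 29 measured genes 7 were called (24.1%), against 18.9% of all tested genes, and they went both ways. In R271W cells 4 rose: the sterol enzymes Lss, Tm7sf2 and Hsd17b7 and the fatty acid desaturase Fads1. Another 3 fell: the sterol enzyme Cyp51, the SREBP retention gene Insig1 and the fatty acid synthase gene Fasn. The shares, 13.8% higher and 10.3% lower, stood near those over all 10143 tested genes, of which 9.87% were called higher and 8.98% lower. The R271W arrays were all above the controls for 5 members (17.2%), against 21.2% of all genes, and below for 9 members (31%), against 16.6% of all genes. The median log2 change was -0.13 over the members and 0.06 over all genes.

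**Figure D1:**
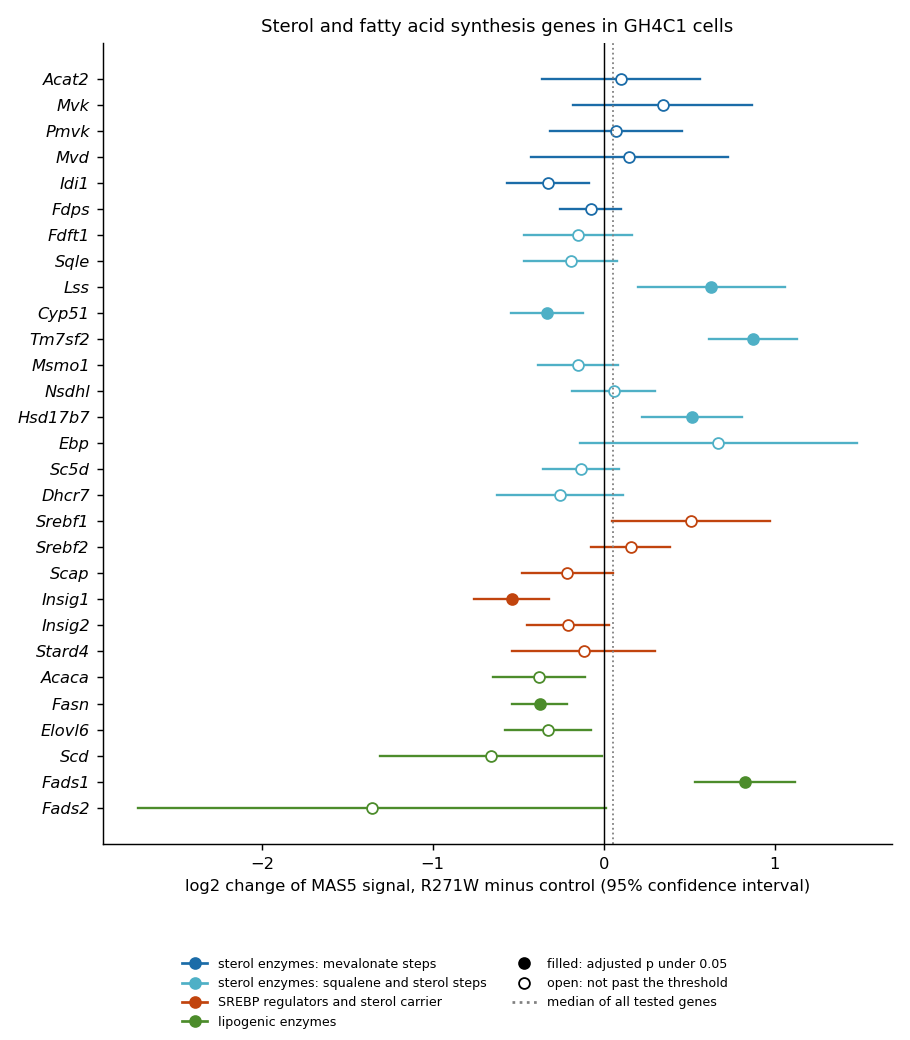
Log2 change of MAS5 signal in R271W cells against controls for the 29 measured genes, coloured by role, with 95% confidence intervals from limma (3 arrays per group); filled points passed an adjusted p under 0.05 and the dotted line is the median of all tested genes (0.06). The 4 filled points on the right are Lss, Tm7sf2, Hsd17b7 and Fads1, and the 3 on the left are Cyp51, Insig1 and Fasn.

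The stretches upstream of 6 of the 7 called genes are shown because SREBP and its partner NF-Y are known to act close to the start of such genes. Each is the last 200 bases before the RefSeq start site on the GRCr8 assembly, 5′ to 3′ along the gene, and capitals mark the CCAAT box, the letters NF-Y binds, on either strand (ATTGG is its reverse). The first 2 genes fell in R271W cells and the other 4 rose.
Insig1, chr4:8057770-8057969, minus strand: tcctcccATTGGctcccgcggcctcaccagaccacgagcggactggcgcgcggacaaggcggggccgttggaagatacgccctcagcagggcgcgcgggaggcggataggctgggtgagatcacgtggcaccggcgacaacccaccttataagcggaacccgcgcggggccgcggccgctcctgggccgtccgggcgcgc
Cyp51, chr4:30991493-30991692, plus strand: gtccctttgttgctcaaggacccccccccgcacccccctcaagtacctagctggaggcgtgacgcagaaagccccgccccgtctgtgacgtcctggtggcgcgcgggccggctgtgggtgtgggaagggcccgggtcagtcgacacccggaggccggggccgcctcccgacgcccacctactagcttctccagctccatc
Tm7sf2, chr1:212789542-212789741, minus strand: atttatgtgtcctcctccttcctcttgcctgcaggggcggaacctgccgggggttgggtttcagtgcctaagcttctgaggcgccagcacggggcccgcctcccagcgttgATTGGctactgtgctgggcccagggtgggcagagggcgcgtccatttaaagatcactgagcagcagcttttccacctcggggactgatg
Fads1, chr1:216252492-216252691, plus strand: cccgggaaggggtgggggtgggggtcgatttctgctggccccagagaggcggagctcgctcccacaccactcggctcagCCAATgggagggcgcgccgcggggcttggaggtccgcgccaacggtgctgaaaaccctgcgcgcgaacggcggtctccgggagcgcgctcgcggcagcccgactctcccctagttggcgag
Hsd17b7, chr13:84722755-84722954, minus strand: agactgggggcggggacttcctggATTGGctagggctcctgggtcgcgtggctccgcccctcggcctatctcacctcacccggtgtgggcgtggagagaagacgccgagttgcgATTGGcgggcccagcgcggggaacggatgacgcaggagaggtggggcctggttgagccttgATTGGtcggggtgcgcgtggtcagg
Lss, chr20:12118231-12118430, minus strand: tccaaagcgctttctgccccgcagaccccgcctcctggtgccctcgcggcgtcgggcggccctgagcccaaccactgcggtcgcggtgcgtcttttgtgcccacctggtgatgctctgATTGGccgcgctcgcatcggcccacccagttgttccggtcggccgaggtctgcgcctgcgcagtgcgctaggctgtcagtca
The CCAAT letters begin 193 bases before the start in Insig1, 89 in Tm7sf2, 121 in Fads1 and 82 in Lss, and occur 3 times in Hsd17b7, at 176, 86 and 25 bases, while the Cyp51 window has none.

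Over whole windows of 300 bases (250 before and 50 after the start), which were found for 23 of the 30 members, CCAAT on either strand was present in 17, or 73.9%, against 37.7% of all 27457 RefSeq promoter windows. The GC box GGGCGG, the letters of Sp1, was present in 19 of 23 members (82.6%) against 34.9% of all windows. The windows printed above were 61.5% to 73% G and C. The background windows were neither limited to tested genes nor matched for G and C, so the part of base content in these shares was not tested. A stretch of an SRE, TCACNCCAC, was in 0 of 23 windows and in 1.13% of all, and the shorter CACCCCAC, which the longer one can contain, was in that of Ebp alone and in 2.57% of all. A POU1F1-like stretch, TATNCAT, was present in the window of Idi1 and in 9.59% of all windows. These are matches of letters in short windows. Of the 4 genes that rose all 4 had a CCAAT match, and of the 2 that fell and had a window 1 did. The GC box was in all 4 that rose and in the 2 that fell. These genes are too few to set a match against direction.

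The early steps of the pathway, from acetyl-CoA to farnesyl diphosphate, had no called gene among 6 measured (1 at an unadjusted limma p under 0.05), with log2 changes from -0.32 to 0.35. Idi1, the isomerase that makes the second isoprenoid building block, read 377, 340.3 and 321 in controls and 295, 299 and 238 in R271W cells. All 3 R271W arrays lay below all controls, and the log2 change of -0.32 missed the threshold (95% confidence interval -0.56 to -0.08, adjusted p = 0.0664). It passed under 75th percentile centring (adjusted p = 0.0202), median centring (0.00367) and the stricter filter (0.0404), and its other probe set gave the same size, -0.32, with arrays that overlapped (adjusted p = 0.481). Fdps, which makes farnesyl diphosphate, had a log2 change of -0.08 with the interval -0.25 to 0.10. Mevalonate kinase, Mvk, read 44.0, 30.8 and 41.1 in controls and 53.6, 44.1 and 48.2 in R271W cells. Its R271W arrays were the higher ones by a narrow gap (log2 0.35, adjusted p = 0.381), and without control replicate 2 the change was 0.19. The remaining kinase and decarboxylase genes, Pmvk and Mvd, and the thiolase gene Acat2 had log2 changes of 0.07, 0.15 and 0.10 with arrays that overlapped.

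In the later steps, from squalene to cholesterol, 3 of 11 genes rose and 1 fell. Tm7sf2, a sterol reductase that acts just after the demethylation of lanosterol, rose the most. Its signals were 124, 139 and 149 in controls and 263, 226.5 and 264 in R271W cells. The groups were far apart, with means of 137 ± 12.3 (SD, n = 3) and 251 ± 21.3 (n = 3), a 1.83-fold rise (log2 0.87, SE 0.12, adjusted p = 0.000302). This call held in all 19 alternative fits, with log2 changes from 0.67 to 0.94. Cyp51, the lanosterol demethylase whose product Tm7sf2 reduces, went the other way: 712, 704 and 670 in controls and 489, 642 and 537 in R271W cells (695 ± 22.6 against 556 ± 78.3, n = 3 each). It fell by 0.33 on the log2 scale (SE 0.10, adjusted p = 0.0348), with R271W replicate 2 close to the controls. A second Cyp51 probe set also fell, by 0.51, from 248 ± 54.1 to 172 ± 8.08 (adjusted p = 0.0333). The Cyp51 call on the main probe set was fragile: its adjusted p was 0.0926 under quantile normalization, 0.0514 with array weights, 0.186 without the intensity trend, 0.107, 0.0989 and 0.0671 without control replicates 1, 2 and 3, and 0.128 and 0.0656 without R271W replicates 1 and 3.

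Hsd17b7, the ketoreductase that works on the demethylated sterol intermediates, read 99.8, 94.1 and 99.7 in controls and 152, 140.1 and 128.5 in R271W cells. The controls were tightly grouped and all lower, and the gene rose 1.43-fold (log2 0.52, SE 0.13, adjusted p = 0.0186). Its dimmer probe set read 0.61 on the log2 scale with groups that did not overlap (adjusted p = 0.0863). The call ended under median centring (0.117), without the intensity trend (0.0518), and without control replicate 2 (0.0613), R271W replicate 1 (0.0696) or R271W replicate 2 (0.0584). Lss, which closes squalene epoxide into lanosterol, read 48.7, 62.5 and 45.5 in controls and 92.6, 78.2 and 70.8 in R271W cells, a log2 change of 0.63 (SE 0.20) at an adjusted p of 0.048. That call sat at the threshold and was lost in 11 of 19 alternatives: quantile normalization (0.111), median centring (0.147), 75th percentile centring (0.0796), no intensity trend (0.0885), the mean over its probe sets (0.576), no filter (0.0724), the replicate block (0.0654), and leaving out control replicate 1 (0.12) or 3 (0.142) or R271W replicate 1 (0.161) or 2 (0.101). A second, dim Lss probe set had overlapping arrays (log2 0.20, adjusted p = 0.901).

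The other 7 late-step genes did not pass. Sqle, the squalene epoxidase and a much studied control point of the pathway, read 273, 219 and 250.5 in controls and 230.0, 238 and 184 in R271W cells. These arrays were interleaved (log2 -0.19, interval -0.47 to 0.08, adjusted p = 0.345). Sc5d, a desaturase near the end of the pathway, read 242, 266 and 240.3 against 237, 213 and 232, so that its groups were apart by a small margin (log2 -0.13, adjusted p = 0.435). Its other probe sets gave -0.44 and -0.02. Fdft1, the squalene synthase gene, read -0.15 on its brighter probe set and 0.14 on the other. Msmo1, Nsdhl and Dhcr7, a methyl oxidase, a sterol dehydrogenase and the last reductase of one branch, had log2 changes of -0.15, 0.06 and -0.25. Ebp, the sterol isomerase, had 0.67 with a wide interval of -0.14 to 1.48. Control replicate 3, at 15.7 the lowest of its arrays, set much of that, since the change was 0.19 without it.

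**Figure D2:**
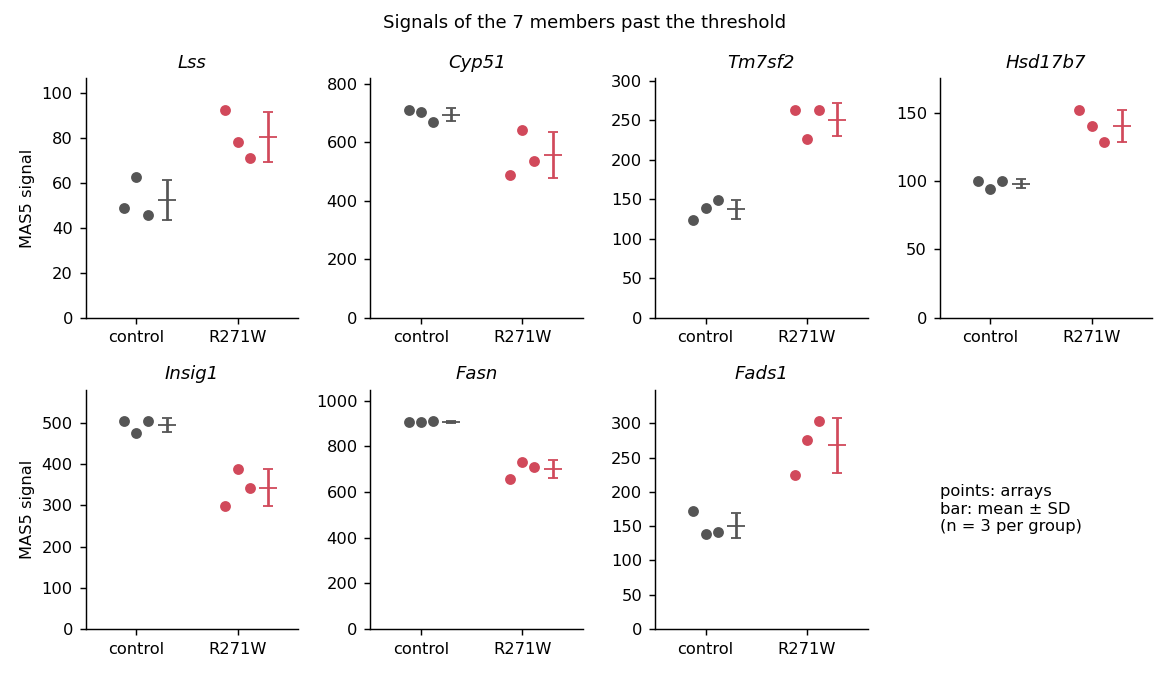
MAS5 signal on each array for the 7 called genes, with controls in grey and R271W cells in red; points are single arrays, horizontal marks with bars are mean ± SD (n = 3 per group), and every axis starts at 0. The groups do not overlap in any panel, and the R271W point nearest to the controls in the Cyp51 panel, at 642, lies just under the lowest control at 670.

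Among the regulators, Insig1 fell and the genes for the SREBP proteins themselves were not called. Insig1 encodes the sterol-regulated retention protein, and its signals were 505, 476 and 505 in controls and 298, 388 and 343 in R271W cells. The highest R271W array was still well below the lowest control, with means of 495 ± 17 and 343 ± 45.1 (n = 3 each), and the gene fell by 0.54 on the log2 scale (SE 0.10, adjusted p = 0.00296). The call held in 18 of 19 alternatives and ended without the intensity trend (adjusted p = 0.0687). Its relative Insig2, which is not an SREBP target in most cells, read 187, 187 and 176 against 164, 159 and 153. Those arrays did not overlap (log2 -0.21, interval -0.45 to 0.03, adjusted p = 0.24), and the other Insig2 probe set also had groups apart (log2 -0.47, adjusted p = 0.075).

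Srebf1, the SREBP gene linked mainly to fatty acid synthesis, read 116, 65.2 and 63.0 in controls and 102, 111 and 122 in R271W cells. Control replicate 1 alone lay among the R271W values, and the log2 change of 0.51 did not pass (adjusted p = 0.128). Without that array it was 0.80 at an adjusted p of 0.013, and the other Srebf1 probe set gave 0.08. Srebf2, linked mainly to sterol synthesis, had a log2 change of 0.16 (interval -0.08 to 0.39) with overlapping arrays. Scap, the escort protein gene, had -0.21 (interval -0.48 to 0.05), and Stard4, a carrier that moves cholesterol between membranes, -0.12. The 3 Stard4 probe sets disagreed: a dim one read 18.1, 8.47 and 8.51 against 26.2, 24.9 and 28.2 (log2 1.27, adjusted p = 0.0886), and the remaining one gave 0.07.

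Of the 6 lipogenic genes 5 read below 0, with 1 of them called, and the remaining one rose. Fasn, which builds palmitate, read 906, 906 and 912 in controls and 659, 733 and 712 in R271W cells. The controls were within a few units of each other and all above the R271W arrays (908 ± 3.59 against 701 ± 38.3, n = 3 each), and the gene fell by 0.37 on the log2 scale (SE 0.07, adjusted p = 0.00404). The call ended only without the intensity trend among 19 alternatives (adjusted p = 0.0781). The second Fasn probe set read -0.30 (adjusted p = 0.143) with groups that all but touched. Its highest R271W array was at 212.92 and its lowest control at 212.95. Acaca, which supplies malonyl-CoA to Fasn, read 292, 302 and 290.5 against 184, 254 and 250.2. Its groups were also apart, at a log2 change of -0.38 that missed the threshold (interval -0.65 to -0.11, adjusted p = 0.0573). It passed under 5 alternatives: 1 probe set per gene (0.0444), the stricter filter (0.0344), 75th percentile centring (0.0259), median centring (0.00777) and leaving out R271W replicate 3 (0.0374). R271W replicate 1, at 184, was the lowest array, and without it the change was -0.23 (adjusted p = 0.186).

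Elovl6, which lengthens the palmitate made by Fasn, read 191, 191 and 209 in controls and 173, 148 and 151 in R271W cells. The groups did not overlap and the change of -0.33 did not pass (adjusted p = 0.0759), though it did under 75th percentile centring (0.027), median centring (0.00554) and the mean over probe sets (0.0147), while its second probe set fell by 0.59, from 171 ± 14.1 to 116 ± 28.9 (adjusted p = 0.0351). Scd, the desaturase that makes monounsaturated fatty acids, had a log2 change of -0.66 (interval -1.31 to -0.01, adjusted p = 0.165) with overlapping arrays, and -0.39 without control replicate 1.

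The pair of desaturases that make polyunsaturated fatty acids read in opposite directions. Fads1 read 172, 138 and 142 in controls and 225, 275 and 303 in R271W cells. Every R271W array was above every control, and the gene rose 1.77-fold (log2 0.83, SE 0.14, adjusted p = 0.00103), a call that held in all 19 alternatives with log2 changes from 0.63 to 0.95. Fads2, which acts before Fads1 on the same fatty acids, read 20.5, 15.3 and 20.3 against 10.9, 9.25 and 3.76. It lay next to the filter, with a mean signal of 11.6 against a limit of 11.2, and its log2 change of -1.35 had an interval of -2.72 to 0.01 (adjusted p = 0.174). Without R271W replicate 3, the lowest array, the change was -0.88.

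Set side by side, the roles had different medians, though none is tested as a group. The median log2 change was 0.06 over the 17 sterol enzymes, -0.16 over the 6 regulators and -0.38 over the 6 lipogenic genes, against 0.06 over all genes. Averaged over the 6 lipogenic genes, log2 signal relative to the control mean was 0.14, -0.16 and 0.02 in the control cultures and -0.39, -0.33 and -0.41 in the R271W cultures. These did not overlap, with Fads1 pulling the R271W mean up and the dim Fads2 pulling it down. The gap leans on Fads2, next to the filter, whose R271W replicate 3 read 3.76 against 15.3 to 20.5 in controls. It is therefore not a trait of the class without that gene. The same average over the 17 sterol enzymes was 0.04, 0.02 and -0.06 in controls and 0.12, 0.18 and 0.01 in R271W cells, which overlapped. The regulators gave 0.09, -0.09 and -0.00196 in controls and -0.13, -0.03 and -0.04 in R271W cells, also with overlap.

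On the deposited scaling, bright and dim members differed in direction. Of 11 members with a mean signal at or above 200, 10 had log2 changes below 0 (90.9%) and all 3 that fell were among them, with a median of -0.21. Of 18 members below that signal, 7 had changes below 0 (38.9%) and all 4 that rose were among them, with a median of 0.09. Fads1 and Tm7sf2 lay just under the limit, at 199 and 185, so where the genes that rose fall depends on the limit chosen. Over all genes the same split gave 55.9% below 0 and a median of -0.04 for bright probe sets and 37.5% and 0.13 for dim ones. Quantile normalization brought both medians of all genes close to 0 (0.000815 and 0.00891), and the bright members then still had a median of -0.21, with 10 of 11 below 0, while the dim ones had -0.00987. Under median centring the contrast in sign was weaker: all 11 bright members and 11 of 18 dim ones (61.1%) lay below 0, with medians of -0.41 and -0.11, as did 80.4% of bright and 57.3% of dim genes overall.

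**Figure D3:**
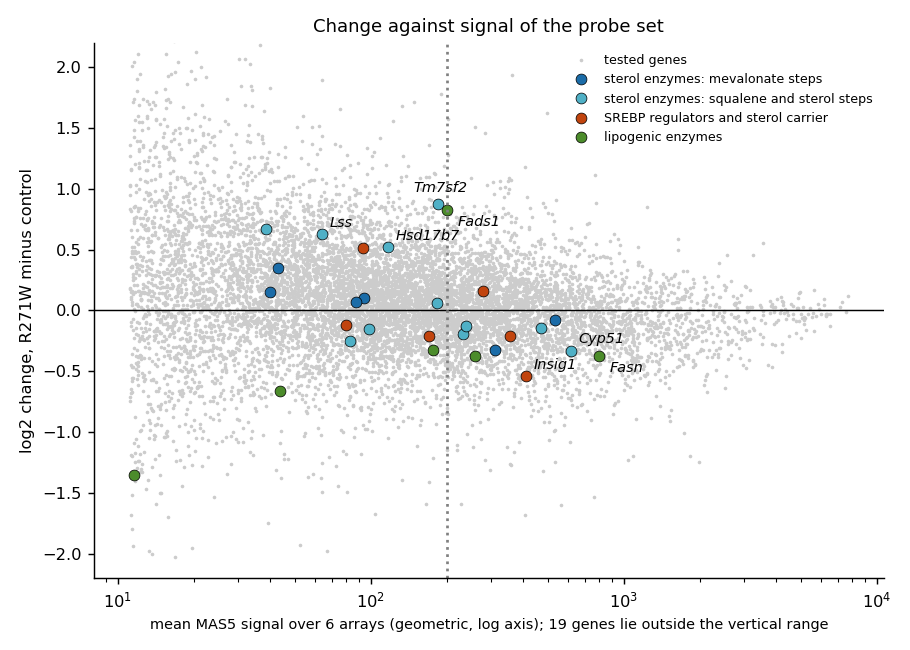
Log2 change against mean MAS5 signal (geometric mean over 6 arrays, log axis) for all tested genes in grey and for the members in colour by role, with the 7 called genes named; the dotted line marks a signal of 200 and 19 genes lie outside the vertical range. To the right of the line 10 of 11 members lie below 0, and to the left 7 of 18 do.

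How many members were called depended on the scaling. With the arrays centred on their medians, which lowers every log2 change by about the 0.20 by which the array medians differ, 2 members were called higher (Tm7sf2 and Fads1) and 12 lower, where 4.35% of all genes were called higher and 20.4% lower. With centring on the 75th percentile 3 members were higher and 6 lower, where 6.81% and 12.9% of all genes were called. With the stricter filter, at the 60th percentile of signal, 4 of 24 members tested were higher and 5 lower, where 13.6% and 13.3% of the genes tested were called. The lower calls that median centring added were Idi1, Fdps, Sqle, Msmo1, Sc5d, Scap, Insig2, Acaca and Elovl6. Under quantile normalization 3 were higher and 2 lower, where 9.19% and 8.94% of genes were called. With the limma spread estimated without its intensity trend, 2 were higher and 0 lower (6 lower at an unadjusted limma p under 0.05), where 3.57% and 2.81% of genes were called. Tm7sf2 and Fads1 were higher and passed in all 5 of these settings, whereas Insig1 and Fasn were lower in all 5 and passed in 4, all but the fit without the trend.

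**Figure D4:**
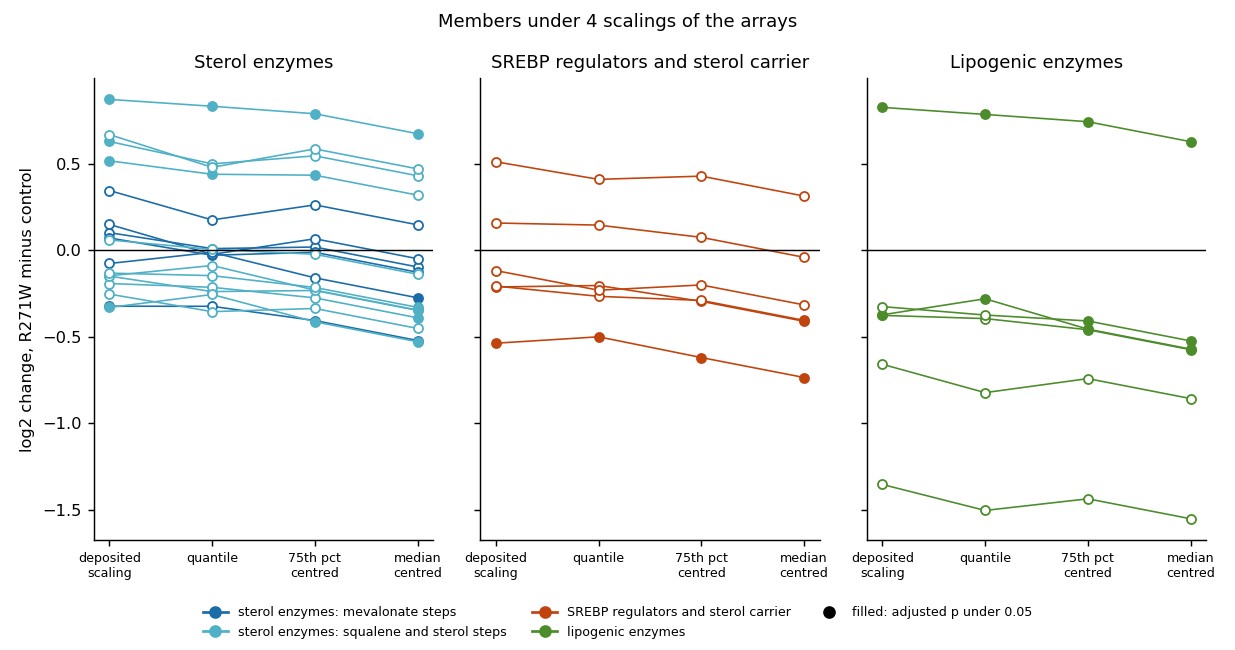
Log2 change of each member under 4 scalings of the arrays (deposited, quantile, centred on the 75th percentile, centred on the median), in a panel for each role, with 1 line per gene; filled points passed an adjusted p under 0.05. Tm7sf2 in the first panel and Fads1 in the third stay filled and above 0 throughout, while the filled points below 0 number 3, 2, 6 and 12 from left to right.

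Genes that act around these enzymes were read from 4 further lists, whose counts of calls stand against the same 9.87% of all genes called higher and 8.98% called lower. The lists hold 9 to 22 tested genes, too few to set a share of theirs firmly above or below it. In the list of SREBP cleavage and turnover, 2 of 9 tested genes fell and none rose (0 also at an unadjusted limma p under 0.05), with a median log2 change of -0.15. Rnf145, a sterol-responsive ubiquitin ligase of the endoplasmic reticulum that acts on SCAP, read 710, 681 and 679 in controls and 356, 388 and 389 in R271W cells. The R271W arrays were near the same level and far below the controls, and the gene fell by 0.87 on the log2 scale (SE 0.08, adjusted p = 1.49e-05). Its second probe set lay below the filter, and averaging both gave -0.92 at an adjusted p of 0.0662. Erlin1, a cholesterol-binding membrane protein known to restrain SREBP activation, read 386, 427 and 395 against 208, 230.4 and 253. Again no array overlapped, and it fell by 0.81 (SE 0.10, adjusted p = 0.000164), a call that held in all 19 alternatives. The protease genes that cut SREBP, Mbtps1 and Mbtps2, had log2 changes of -0.13 and -0.31 (adjusted p = 0.394 and 0.0639). Mbtps1 passed under median centring (0.0311), and Mbtps2 under 6 of 19 alternatives, quantile normalization among them (0.0437).

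In the list of sterol uptake, movement, storage and efflux, 3 of 16 tested genes rose and 2 fell, with a median of 0.16. Soat1, which esterifies cholesterol for storage, read 74.9, 66.0 and 77.1 in controls and 112, 133 and 113 in R271W cells, with no overlap, and rose 1.64-fold (log2 0.71, SE 0.16, adjusted p = 0.00669). The dimmer Soat1 probe set read 0.43 with arrays that overlapped and was not called (adjusted p = 0.240). Abcg1, a sterol exporter, rose by 0.73 (adjusted p = 0.0154), a call lost under median centring (0.0612) and without control replicate 1 (0.0502), and its dimmer tested probe set read -0.64 with overlap. Mylip, a ubiquitin ligase that degrades lipoprotein receptors, rose by 0.62 (adjusted p = 0.0124), and lost the call under median centring (0.069), without the intensity trend (0.0563), and without control replicate 2 (0.0534) or R271W replicate 2 (0.0525). Abcg1 and Mylip are both classical targets of the sterol-sensing LXR receptors. Abca1, another such target, did not follow on its brightest probe set (log2 -0.07, adjusted p = 0.762), and another of its 4 probe sets fell from 150 ± 22.2 to 91.1 ± 6.67 (log2 -0.71, adjusted p = 0.00506).

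Osbp, an oxysterol-binding transfer protein, fell from 490 ± 41.3 to 357 ± 46.7 (log2 -0.46, adjusted p = 0.00962), and a dim second probe set read -0.03. The call ended without the intensity trend (0.105) and with both probe sets averaged (log2 -0.24, adjusted p = 0.21). Vldlr, a lipoprotein receptor gene, fell by 0.43 (adjusted p = 0.0421) and by 0.54 on another probe set (adjusted p = 0.00708), while the other two gave 0.28, with groups apart the other way (adjusted p = 0.264), and -0.15 with overlap. The Vldlr call on the brightest probe set ended with probe sets averaged (log2 -0.21, adjusted p = 0.216), without the intensity trend (0.171) and without control replicate 1 (0.0567), 2 (0.0611) or 3 (0.176) and R271W replicate 1 (0.142) or 2 (0.112).

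In fatty acid supply, elongation and glycerolipid synthesis, the longest list, 3 of 22 tested genes rose and 6 fell, with a median of -0.15. Hsd17b12, the ketoreductase of fatty acid elongation, read 466, 533 and 492 against 757, 711 and 757, and rose by 0.58 (SE 0.08, adjusted p = 0.000364). Hacd3, a dehydratase of the next step, read 1097, 1088 and 1046 against 752, 777 and 742, and fell by 0.51 (SE 0.07, adjusted p = 0.000323), with -0.55 on its other probe set. Hacd2, a dehydratase of the same step, fell by 0.35 (adjusted p = 0.0172). That call ended with probe sets averaged (log2 -0.14, adjusted p = 0.661), without the intensity trend (0.0809), and without control replicate 1 (0.052), 2 (0.0582) or 3 (0.0532) or R271W replicate 1 (0.0521). Elovl2, which lengthens polyunsaturated fatty acids, rose by 0.49 (adjusted p = 0.00649), though not past the threshold under median centring (0.0894) or without the intensity trend (0.0596).

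Acss2, which makes acetyl-CoA from acetate, rose from 155 ± 6.84 to 231 ± 14.0 (log2 0.58, adjusted p = 0.00305), and Me1, the malic enzyme that supplies NADPH for lipid synthesis, fell from 866 ± 18.0 to 683 ± 60.2 (log2 -0.35, adjusted p = 0.0107), a call lost without the intensity trend (0.114). Acsl5, which activates fatty acids, fell by 0.64 (adjusted p = 0.000533). The glycerolipid enzymes Gpat4, an acyltransferase, and Lpin1, a phosphatidate phosphatase, fell by 0.51 (adjusted p = 0.00735) and 0.49 (adjusted p = 0.00425), and their second probe sets fell by 0.52 and 0.51. Gpat4 lost its call on the brighter probe set without the intensity trend (0.112). Dgat1 and Dgat2, which complete triglyceride synthesis, had log2 changes of 0.04 and -0.12 without a call.

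In the isoprenoid branch, which turns farnesyl diphosphate into lipid anchors, dolichol and coenzyme Q, 1 of 11 tested genes rose and 1 fell. Of the 11, 8 read below 0, with a median of -0.16. Dhdds had a log2 change of -0.73 with groups apart (adjusted p = 0.0937). Nus1 had groups apart on every probe set, at -0.30 on the brightest (adjusted p = 0.077) and a called -0.65 on another (adjusted p = 0.00432). Pggt1b, a subunit of a geranylgeranyl transferase, rose from 78.4 ± 6.43 to 128 ± 3.96 (log2 0.71, adjusted p = 0.00445), but its other probe set read -0.19 and the mean of both did not pass (log2 0.26, adjusted p = 0.208). Rabggtb, a subunit of the transferase for Rab proteins, fell by 0.31 at an adjusted p of 0.0402, which ended under quantile normalization (0.114), no filter (0.0531) and no intensity trend (0.197), and when control replicate 2 (0.166) or 3 (0.112) or R271W replicate 1 (0.141) or 2 (0.0641) was left out.

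**Figure D5:**
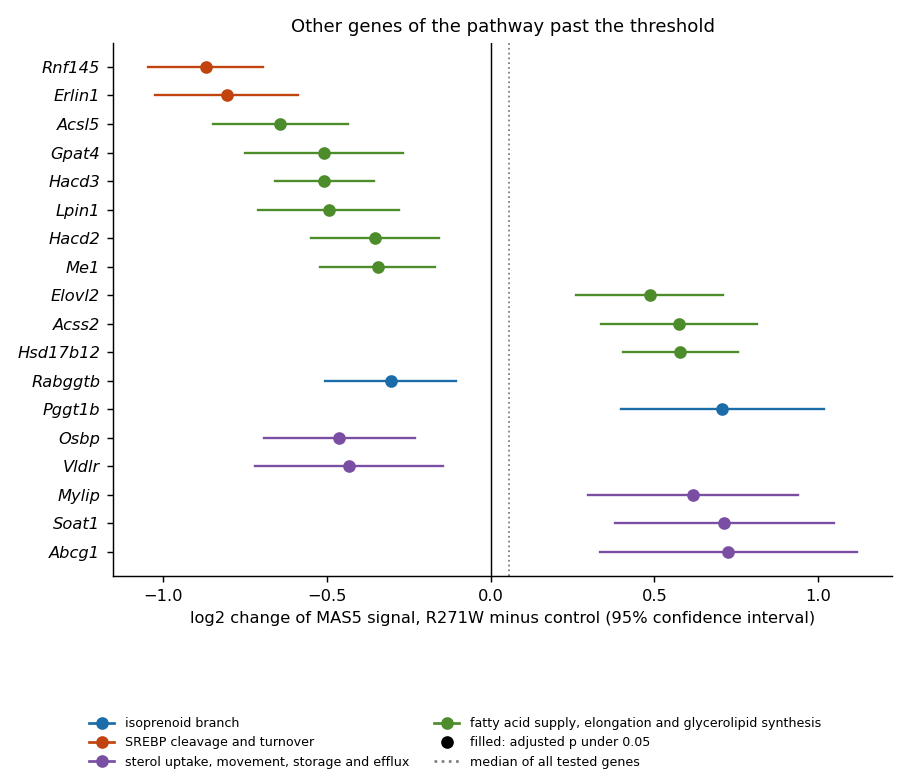
Log2 change of MAS5 signal, R271W against control, with 95% confidence intervals from limma (3 arrays per group) for the 18 called genes of the 4 further lists, coloured by list; the dotted line is the median of all tested genes (0.06). Rnf145 and Erlin1 are the lowest points, at -0.87 and -0.81, and Abcg1, Soat1 and Pggt1b are the highest, between 0.71 and 0.73.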

How the data were processed

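RNA of 6 GH4C1 cultures was hybridised to Affymetrix rat arrays, 1 array each, 3 control and 3 POU1F1(R271W) by the sample labels. The deposited intensity values are MAS5 signals on a linear scale, per the submitters' processing notes, while the MAS5 version, background settings and detection calls were not stated there. The values show a common trimmed mean on all arrays, a scaling that can shift dim probe sets between arrays. Gene symbols were read from GEO's platform annotation and brought up to date with RefSeq (GRCr8) Entrez IDs. Of 31042 non-control probe sets 20826 had 1 symbol, 436 several and 9780 none.

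Signals were taken to log2 and fitted with limma 3.58.1 in R 4.3.3 (group as the term, eBayes with an intensity trend, two-sided) on the 18625 probe sets at or above the 40th percentile of mean log2 signal (a signal of 11.2), with p-values adjusted by Benjamini-Hochberg and called under 0.05. The fit was tested on simulated data. A gene was read on its brightest single-symbol probe set. All members are named, and of each further list the called genes with the smallest p, at most 6. Gpat4, Me1, Hacd2, Mbtps1, Mbtps2, Abca1, Dgat1, Dgat2, Acsl4, Nus1, Dhdds, Thrsp, Osbpl1a, Agpat3 and the changes of Prl, Pou1f1 and Chgb were added after their values were seen. Members and lists were chosen with earlier results of these data known. Promoter windows are RefSeq's first per gene on GRCr8. Alternatives are in the closing section. Summaries used Python 3.11.15 and plots matplotlib 3.10.9.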

Additional observations from a re-analysis of the deposited data

How the results depend on the processing

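Alternatives were quantile normalization, median and 75th percentile centring, an offset or a floor of 3.72, no filter or one at the 60th percentile, no intensity trend, robust eBayes, array weights, a replicate block, the mean over probe sets, 1 probe set per gene and leaving out each array. Members called lower numbered 3, and 12 under median centring (20.4% of all genes), 6 under 75th percentile centring (12.9%), 5 with the filter at the 60th percentile, which tests fewer probe sets (13.3%), and 0 without the intensity trend (2.81%; 6 members at an unadjusted limma p under 0.05). Members called higher numbered 4, and 2 under median centring (4.35% of all genes) and without the trend (3.57%). The median of the sterol enzymes, 0.06, became -0.0242 under quantile normalization, -0.0235 under 75th percentile centring, -0.14 under median centring, -0.10 with the stricter filter and -0.0333 with probe sets averaged, so its sign is not set. That of the regulators, -0.16, became -0.25 under 75th percentile and -0.36 under median centring, and that of the lipogenic genes, -0.38, became -0.57 under median centring. Centring subtracts a constant by construction. The stricter filter dropped Mvk, Mvd and Ebp, with log2 changes of 0.35, 0.15 and 0.67, and left those of the other sterol enzymes as they were. Otherwise the cause was not tested. Leaving out single arrays gave 2 to 4 members higher and 2 to 3 lower, with 2 higher without R271W replicate 1 or 2, and medians of -0.0846 to 0.0738 for sterol enzymes, -0.20 to -0.0809 for regulators and -0.43 to -0.36 for lipogenic genes. Counts under the other alternatives stayed within 1.5 times. With the replicate block 3 members were higher and 3 lower. Same-numbered arrays showed no shared deviation over all tested probe sets (correlations of -0.00165, 0.0101 and -0.0201). Differently numbered arrays gave -0.0207 to 0.0228. Such correlations can miss a pairing that touches few genes, so whether the numbers pair the cultures is not known. Dim probe sets limit Fads2, Scd and Ebp most, whose SE on the log2 scale was 0.64, 0.30 and 0.38.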

Other observations

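Acsl4, an acyl-CoA synthetase gene that prefers polyunsaturated fatty acids, lay below the signal filter and was not tested. Its signals were 0.536, 0.740 and 0.256 in controls and 12.0, 8.85 and 6.94 in R271W cells.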
